A study of Mus musculus with 6 samples.

Results

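The 41 genes described here carry the interferon response and the class I antigen presentation that it feeds: the interferon receptors, the transcription factors below them, sensors of foreign RNA, antiviral proteins and the peptide-loading machinery. They were taken by gene name from a list, and all 41 were found among the 46983 genes of the deposited count table. RNA was sequenced from C2C12 myotubes, wild-type fibres formed from an established mouse myoblast line in horse-serum medium. In 3 libraries (COR1, COR2, COR3) the myotubes had received corticosterone, the main glucocorticoid of rodents, at 1e-07 M for 24 h, and in 3 (VEH1, VEH2, VEH3) ethanol at 1 µL/mL for 24 h. The labels name no interferon among the treatments, and all 6 libraries came from this 1 cell line. The labels call the libraries independent biological replicates.

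Type I interferons bind the receptor pair Ifnar1 and Ifnar2, and the kinases at that receptor activate Stat2, which joins Irf9 on the interferon-stimulated response element (ISRE) of antiviral genes. Interferon gamma binds Ifngr1 and Ifngr2 and acts on genes such as Irf1, which in turn favours antigen presentation. Glucocorticoids are known in immune and epithelial cells to hold down parts of this response. Muscle fibres show little class I antigen on their surface at rest, and gain it in inflamed muscle.

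Total counts ran from 23877583 to 29928653 per library, and 0.103 to 0.125 CPM, the unit of level used below (counts divided by the TMM-scaled depth), corresponded to 3 counts, the floor. Of the myotube markers, 7 of 8 listed were matched and all of these were over the floor, with a summed level of 13580 to 15530 CPM in the corticosterone libraries and 9571 to 13610 CPM in the vehicle libraries. The 6 markers listed for proliferating myoblasts summed to 210 to 225 CPM with corticosterone and 245 to 251 CPM with vehicle, so these sums did not overlap between the labels. On the log2 scale, corticosterone minus vehicle, Cdk1, Ccnb1, Top2a and Mki67 differed by -0.526, -0.375, -0.312 and -0.291. Myf5 and Pax7 went the other way, at 0.145 and 0.091. By gene, 2 of the 6 did not overlap (Top2a and Ccnb1), against 16.6% of all genes tested. All 9 white blood cell markers were matched, and they summed to 7.16 to 9.93 CPM with corticosterone and 7.06 to 8.91 CPM with vehicle, most of it Cd14 (4.47 to 7.67 CPM), with the defining markers Ptprc and Adgre1 at 0 in every library. Endothelial markers summed to at most 0.743 CPM, and fibroblast or adipogenic markers to 28.6 to 39.1 CPM with corticosterone and 25.8 to 46.2 CPM with vehicle, with Adipoq at 0. The part of the myotube and myoblast differences in the results below was not tested. In such bulk RNA, fewer cells of a kind and less RNA per cell cannot be told apart.

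Genes that glucocorticoids induce went against the label in COR2 and VEH2. Fkbp5, whose protein damps the receptor for these hormones, stood at 151, 36.9 and 135 CPM in COR1 to COR3 and at 36.9, 177 and 35.4 CPM in VEH1 to VEH3. Tsc22d3 and Per1 showed the same order, with COR1, COR3 and VEH2 high and COR2, VEH1 and VEH3 low. The interferon genes are therefore given by label, as the library labelled corticosterone or vehicle, and also for COR1, COR3 and VEH2 beside COR2, VEH1 and VEH3. That second arrangement was read from glucocorticoid-induced genes of these same libraries, so it carries no test.

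The promoters were read for the letters that interferon factors bind. In the RefSeq promoter table (GRCm38.p6), windows from 250 bases before to 50 bases after a gene start were present for 36 of the 41 members, 45 windows in all. The ISRE letters GAAANNGAAA, searched on both strands, stood in 17 of these 45 windows (37.8%), against 3.44% of all 32851 windows in the table and 2.87% of the windows of genes tested. Those 17 genes were B2m, Bst2, Ddx58, Eif2ak2, Gbp2, Gbp3, Gbp7, Ifih1, Ifit1, Ifit3, Ifitm2, Ifitm3, Irf2, Isg15, Oas1a, Rsad2 and Stat2. The letters TTCNNNGAA, the core of the gamma-activated site, stood in 28.9% of the member windows. They stood in 8.3% of all windows and in 6.72% of the windows of genes tested. The spaced core ACANNNTGT, bound by the glucocorticoid receptor, stood in 1 of the 45 member windows (2.22%). It stood in 6.85% of all windows and in 4.3% of the windows of genes tested. These are letter matches in short windows, not binding sites, and the ISRE and TTCNNNGAA matches may overlap in a window.

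The 250 bases before the start are shown for 6 of the members with ISRE letters there. They run 5′ to 3′ on the gene's strand, with ISRE letters on either strand in capitals. Other members described below, such as Irf1, Irf7, Isg20, Tap1, H2-D1 and H2-K1, had no ISRE letters in these bases. Only exact letters were searched, so the lack of a match does not mean that a gene lacks an ISRE. The matches begin, counted from the start, at -104 and -85 in Ifit1, at -156 and -122 in Ifit3, at -78, -72 and -66 in Isg15, at -130 and -124 in Bst2, at -139 in B2m and at -241 in Irf2. The windows lie on GRCm38.p6 at chr19:34640639-34640888 (Ifit1, plus strand), chr19:34583279-34583528 (Ifit3, plus strand), chr4:156200819-156201068 (Isg15, minus strand), chr8:71537473-71537722 (Bst2, minus strand), chr2:122147437-122147686 (B2m, plus strand) and chr8:46739495-46739744 (Irf2, plus strand).
Ifit1: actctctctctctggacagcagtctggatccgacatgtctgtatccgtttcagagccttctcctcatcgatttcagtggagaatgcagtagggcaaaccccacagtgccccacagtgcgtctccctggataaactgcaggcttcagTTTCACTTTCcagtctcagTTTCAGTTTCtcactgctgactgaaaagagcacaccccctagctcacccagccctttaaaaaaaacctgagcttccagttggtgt
Ifit3: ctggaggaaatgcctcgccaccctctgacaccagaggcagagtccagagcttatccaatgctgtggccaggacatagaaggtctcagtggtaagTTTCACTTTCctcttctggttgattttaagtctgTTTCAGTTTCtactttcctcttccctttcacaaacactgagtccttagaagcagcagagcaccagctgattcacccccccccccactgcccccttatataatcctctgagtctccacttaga
Isg15: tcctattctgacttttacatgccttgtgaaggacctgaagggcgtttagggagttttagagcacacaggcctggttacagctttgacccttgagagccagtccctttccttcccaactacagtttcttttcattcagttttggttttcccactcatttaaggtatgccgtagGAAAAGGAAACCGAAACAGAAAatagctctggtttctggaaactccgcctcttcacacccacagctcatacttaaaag
Bst2: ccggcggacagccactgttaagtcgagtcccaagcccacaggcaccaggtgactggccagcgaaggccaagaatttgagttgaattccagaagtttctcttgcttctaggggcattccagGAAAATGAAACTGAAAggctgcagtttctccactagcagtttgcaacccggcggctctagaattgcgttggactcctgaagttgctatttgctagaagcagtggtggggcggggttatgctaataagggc
B2m: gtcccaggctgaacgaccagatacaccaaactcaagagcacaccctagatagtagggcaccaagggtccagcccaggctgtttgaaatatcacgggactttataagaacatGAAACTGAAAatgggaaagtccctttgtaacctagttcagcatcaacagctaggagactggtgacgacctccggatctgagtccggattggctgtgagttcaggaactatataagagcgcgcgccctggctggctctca
Irf2: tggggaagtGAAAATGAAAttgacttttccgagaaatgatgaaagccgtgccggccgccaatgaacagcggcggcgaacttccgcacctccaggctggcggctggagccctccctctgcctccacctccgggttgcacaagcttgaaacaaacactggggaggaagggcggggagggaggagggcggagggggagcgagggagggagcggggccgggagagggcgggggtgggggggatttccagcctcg
In Isg15 and Bst2 the matches run into each other, while in Ifit1 and Ifit3 they stand apart, on the opposite strand to the gene.

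With no interferon named among the treatments, the members stood at very different levels. Per exon length, B2m led at 350 RPKM (CPM per kilobase of exon, mean of 6 libraries), followed by Ifitm3 at 252, Ifitm2 at 169, Tapbp at 32.7 and H2-D1 at 28.1. All 4 receptors lay between 5.21 and 21.0 RPKM. Several genes known for their strong rise with interferon lay near the bottom, with Ifit1 at 0.450, Irf7 at 0.424, Oasl2 at 0.268, Mx2 at 0.174, Usp18 at 0.0662, Mx1 at 0.0472, Rsad2 at 0.0358 and Oas1a at 0.0197 RPKM. Members with ISRE letters in a window had a median of 2.68 RPKM (17 genes), and those with a window without them 5.42 RPKM (19 genes). Between the highest and the lowest library the tested members differed by a median of 1.53 times, and all genes tested by 1.39 times.

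**Figure D1:**
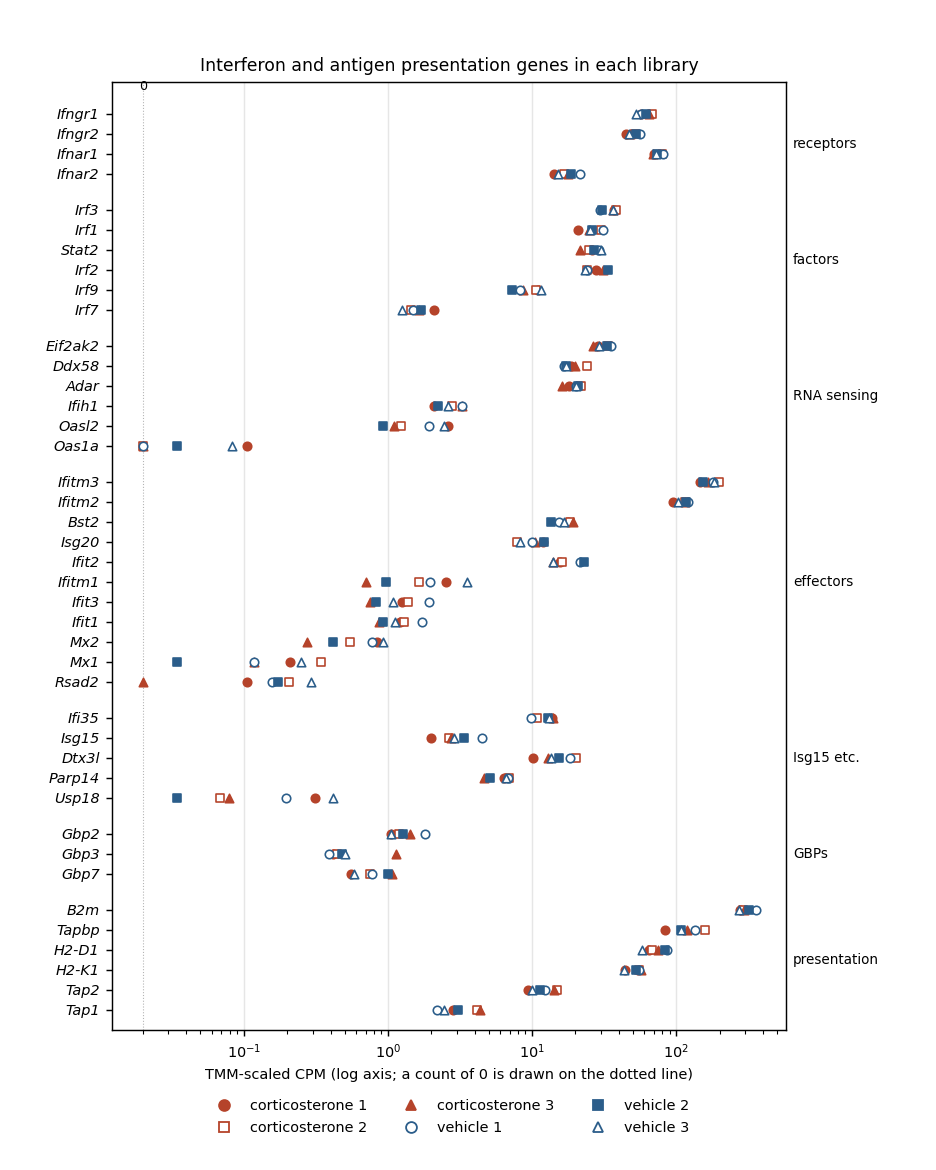
TMM-scaled CPM (log axis) of the 41 members in each of the 6 libraries, by role; colour gives the label (red corticosterone, blue vehicle) and filled symbols mark COR1, COR3 and VEH2, with counts of 0 on the dotted line. The genes span from Oas1a, at 0 in 3 libraries, to B2m, between 273 and 355 CPM.

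By label, no member passed the test. Of the 37 members that passed the count filter, edgeR's quasi-likelihood test called 0 at an adjusted p of 0.05 (the lowest was 0.386). It called 0% of all 14450 genes tested. DESeq2 and limma-voom also called 0 members, though DESeq2 gave no adjusted p for Mx2 and Gbp3. Over all 14450 genes, DESeq2 called 138 and limma-voom 0. At an unadjusted p under 0.05 there were 3 members (Stat2, Ddx58 and Bst2), against 11.8% of all genes. Point differences, corticosterone minus vehicle, were above 0 in 13 members and below 0 in 24, with a median of -0.057 on the log2 scale, against 0.004 over all genes tested. With 1 library left out, that median ran from -0.128 (without COR2) to -0.008 (without VEH1), and the members' median varied between libraries of a label by an SD of up to 0.116. The levels of the labels did not overlap in 4 of 37 members, against 16.6% of all genes. Ddx58 and Bst2 were higher in all 3 corticosterone libraries (8.41% of all genes were) and Stat2 and Isg15 lower (8.19% of all genes were). In these shares the members lay at or below the background of the table.

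**Figure D2:**
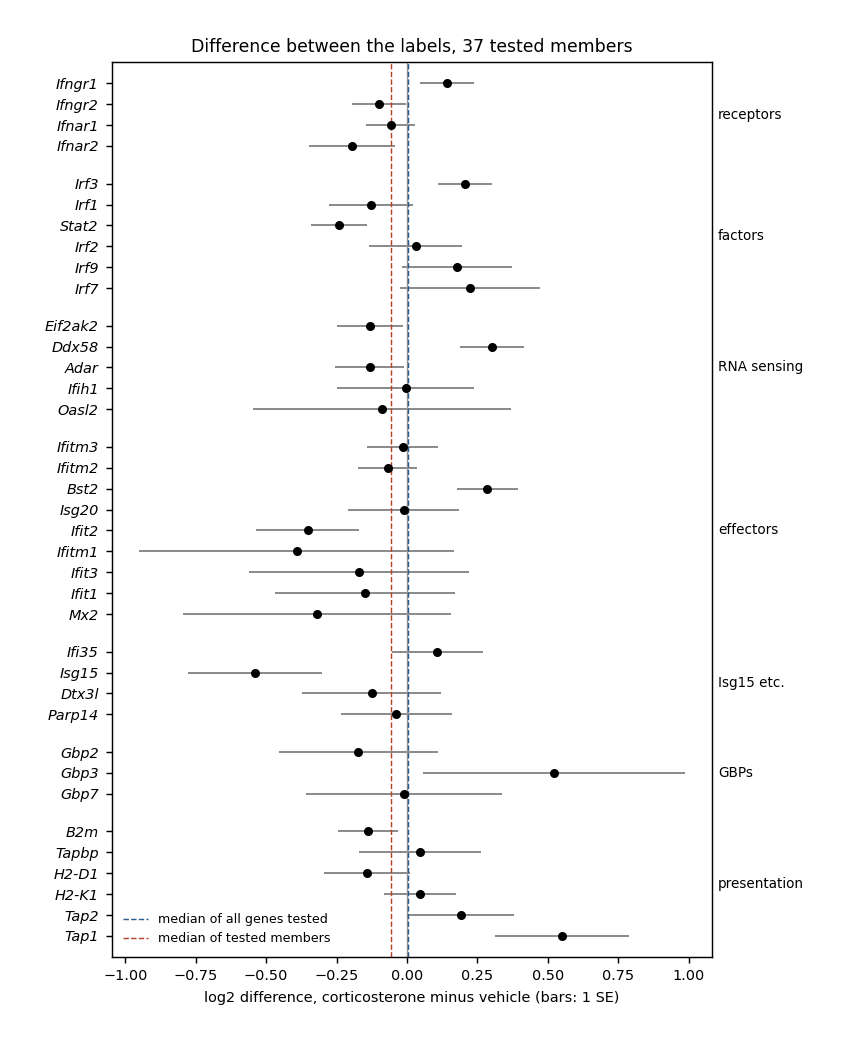
Log2 difference, corticosterone minus vehicle, of the 37 tested members (points, edgeR) with 1 standard error (bars), by role; dashed lines give the median of the members (-0.057) and of all genes tested (0.004). Tap1 lies farthest to the right at 0.55 and Isg15 farthest to the left at -0.54.

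None of the 4 receptor genes passed the test. Ifngr1, the ligand-binding chain of the interferon gamma receptor and the receptor gene highest per length, stood at 56.5, 67.4 and 64.7 CPM in COR1 to COR3 and at 57.2, 61.2 and 52.5 CPM in VEH1 to VEH3. The groups overlapped, and the difference was 0.14 ± 0.096 (SE) on the log2 scale, with an adjusted p of 0.573 by edgeR, running from 0.08 (without VEH3) to 0.213 (without COR1) with 1 library left out. Its partner Ifngr2 ran from 44.6 to 55.9 CPM over the 6 libraries. Ifnar1, a chain of the type I receptor, ran from 68.5 to 80.8 CPM, and Ifnar2, the chain that binds the ligand most tightly, from 14.1 to 21.7 CPM. Ifnar2 was highest in VEH1 and lowest in COR1. In all 4 receptor genes the labels overlapped.

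The ligands were near silent. Of 9 interferon genes listed, 0 passed the count filter: Ifnb1 had its highest level, 0.0345 CPM, in VEH2 and was at 0 in the other libraries, Ifng reached at most 0.196 CPM, in COR3, and Ifna1, Ifna2, Ifna4, Ifnk, Ifnl2 and Ifnl3 had no count in any library. Ifne had counts in VEH1 alone, at 0.0391 CPM. The kinases were present at 44.4 CPM or more for Tyk2 and 169 CPM or more for Jak1 in every library.

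Among the transcription factors, Stat2, which carries the type I signal to the ISRE, did not overlap between the labels. It stood at 26.2, 24.8 and 21.5 CPM in COR1 to COR3 and at 29.0, 26.9 and 29.98 CPM in VEH1 to VEH3. All corticosterone libraries lay below all vehicle libraries, though COR1 and VEH2 were close. The difference was -0.24 ± 0.10 (SE) on the log2 scale, with an unadjusted p of 0.0455 and an adjusted p of 0.415 by edgeR. Irf9, the DNA-binding partner of Stat2, stood at 11.1, 10.6 and 8.64 CPM in COR1 to COR3 and 8.21, 7.24 and 11.4 CPM in VEH1 to VEH3. VEH3 held its highest value, so the labels overlapped.

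Irf3, the factor that RNA sensors activate and the highest of the 6 per length at 10.1 RPKM, stood at 37.2, 38.0 and 36.2 CPM in COR1 to COR3. In VEH1 to VEH3 it stood at 29.4, 30.8 and 36.4 CPM. VEH1 and VEH2 were low and VEH3 lay among the corticosterone libraries, and the difference was 0.21 on the log2 scale, with an adjusted p of 0.444 by edgeR. Irf1, the factor below interferon gamma, stood at 20.9, 30.01 and 24.7 CPM in COR1 to COR3 and at 31.2, 26.2 and 25.2 CPM in VEH1 to VEH3. It was lowest in COR1 and overlapped by label, with a difference of -0.13 ± 0.15 (SE) and an adjusted p of 0.732; with 1 library left out it ran from -0.275 (without COR2) to -0.010 (without COR1). Irf7, the amplifier of the type I response, was scarce, at 2.10, 1.44 and 1.65 CPM in COR1 to COR3 and 1.49, 1.69 and 1.25 CPM in VEH1 to VEH3.

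Of the RNA sensors, Ddx58, which encodes RIG-I, the sensor of short viral RNA ends, was higher with corticosterone in every library. It stood at 18.8, 24.1 and 19.8 CPM in COR1 to COR3 and at 16.6, 17.1 and 17.1 CPM in VEH1 to VEH3. The vehicle libraries were tightly grouped and COR2 was the highest. The difference was 0.30 ± 0.11 (SE) on the log2 scale (unadjusted p 0.0327, adjusted p 0.391 by edgeR). Without COR2 it was 0.185. Ifih1, which encodes MDA5, the sensor of long viral RNA, ran from 2.10 to 3.28 CPM and overlapped.

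Eif2ak2, which encodes the kinase PKR that stops translation on viral RNA, was the sensor highest per length. It stood at 28.7, 33.5 and 26.3 CPM in COR1 to COR3 and at 35.1, 33.1 and 28.9 CPM in VEH1 to VEH3. These overlapped. Adar, the RNA-editing enzyme, ran from 16.2 to 21.8 CPM, although 16.8% of its exon length overlaps Chrnb2 on the other strand, whose reads cannot be told apart here. Oas1a, an activator of RNase L, had 3, 0 and 0 counts in COR1 to COR3 and 0, 1 and 2 counts in VEH1 to VEH3, at or below the floor of 3 counts in every library. Of the 50-base stretches of its transcripts, 57.6% recur in Oas1g, so the level of Oas1a is uncertain.

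The antiviral effectors ranged from Ifitm3, at a mean of 171 CPM, to Rsad2, at 0.155 CPM. Ifitm3, which blocks viral entry from endosomes, stood at 147, 197 and 165 CPM in COR1 to COR3 and at 181, 152 and 182 CPM in VEH1 to VEH3. It did not follow the label (difference -0.015). Ifitm2 ran from 94.5 to 121 CPM, but 48.5% of its 50-base stretches recur in other annotated transcripts, so its level is uncertain. Ifit2, which binds foreign RNA, stood at 15.7, 16.1 and 14.0 CPM in COR1 to COR3 and at 21.6, 22.8 and 14.1 CPM in VEH1 to VEH3. VEH1 and VEH2 were high and VEH3 lay with the corticosterone libraries, for a difference of -0.35 ± 0.18 (SE) with an adjusted p of 0.478 by edgeR. It ran from -0.546 (without VEH3) to -0.227 (without VEH2) with 1 library left out.

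Bst2, which encodes tetherin, a protein that holds budding virus at the cell surface, was the member with the lowest unadjusted p. It stood at 17.7, 18.4 and 19.3 CPM in COR1 to COR3 and at 15.3, 13.6 and 16.6 CPM in VEH1 to VEH3. All corticosterone libraries lay above all vehicle libraries. Mean levels were 18.5 ± 0.831 and 15.2 ± 1.501 CPM (SD, n = 3 each), and the difference was 0.29 ± 0.11 (SE) on the log2 scale, with an unadjusted p of 0.0302 and an adjusted p of 0.386 by edgeR. Over the alternatives run, the Bst2 difference stayed between 0.21 and 0.35 and its adjusted p between 0.155 and 0.927.

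Scarce effectors varied widely among libraries of the same label. Ifitm1, an entry inhibitor related to Ifitm3, stood at 2.51, 1.64 and 0.707 CPM in COR1 to COR3 and at 1.95, 0.965 and 3.55 CPM in VEH1 to VEH3. VEH3 and COR1 were high and COR3 and VEH2 low, a span of 5.02 times. The exact Poisson interval (95%, counting error only) of COR3 was 0.419 to 1.12 CPM and that of VEH3 2.83 to 4.39 CPM, so these libraries differed beyond counting. Mx2, annotated as a polymorphic pseudogene in this assembly, put the libraries in the same order from VEH3 (0.919 CPM) through COR1, VEH1, COR2 and VEH2 (0.414 CPM) to COR3 (0.275 CPM).

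Ifit3 and Ifit1, which bind viral RNA together, also shared an order of libraries. Ifit1 ran from VEH1 (1.72 CPM) through COR2, COR1, VEH3 and VEH2 (0.931 CPM) to COR3 (0.864 CPM), and Ifit3 through the same order from 1.92 to 0.746 CPM. Of the 50-base stretches of Ifit3, 51.2% recur in Ifit3b, so the level of Ifit3 is uncertain. These matching orders were chosen after the values were seen, and they rest on 19 to 49 counts per library for Ifit3 and on 7 to 24 for Mx2. Mx1 and Rsad2, antiviral proteins that are markers of a strong response, failed the count filter. Mx1 had 6, 10 and 3 counts in COR1 to COR3 and 3, 1 and 6 in VEH1 to VEH3, and Rsad2 had 3, 6 and 0 and then 4, 5 and 7.

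**Figure D3:**
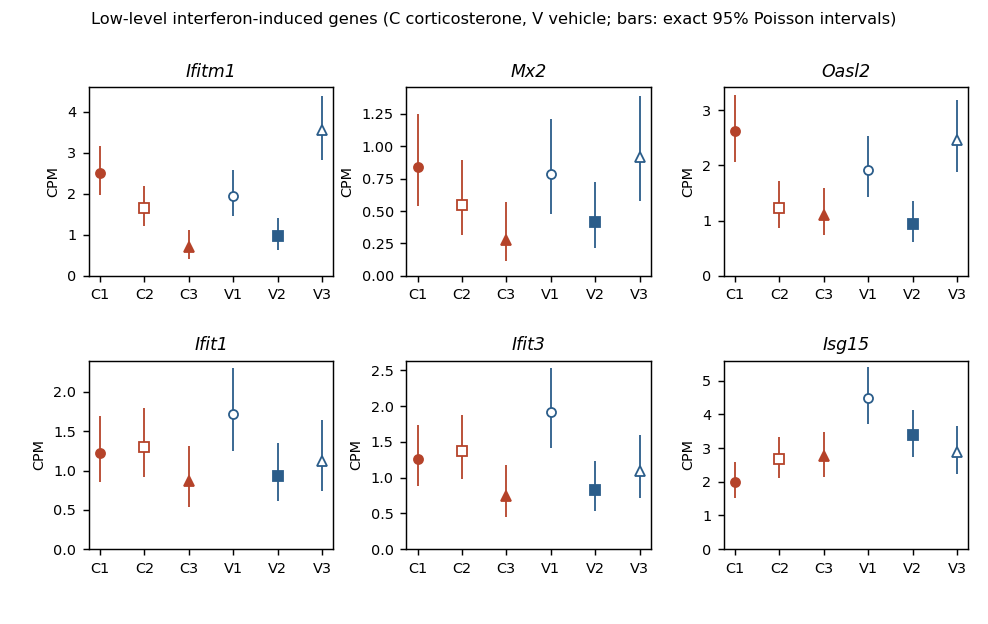
TMM-scaled CPM of 6 low-level members in each library (C1 to C3 corticosterone, V1 to V3 vehicle), with exact 95% Poisson intervals as bars; filled symbols mark COR1, COR3 and VEH2. Ifitm1 and Mx2 are lowest in C3 and highest in V3, and Isg15 is lower in all corticosterone than in all vehicle libraries.

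Isg15, a ubiquitin-like protein joined to other proteins during the response, was lower with corticosterone in every library. It stood at 1.99, 2.67 and 2.75 CPM in COR1 to COR3 and at 4.50, 3.38 and 2.88 CPM in VEH1 to VEH3. COR3 and VEH3 lay close, and VEH1 was the highest. The exact Poisson intervals of COR3 (2.14 to 3.47 CPM) and VEH3 (2.24 to 3.65 CPM) overlapped. The difference was -0.54 ± 0.24 (SE) on the log2 scale, with an unadjusted p of 0.056 and an adjusted p of 0.430 by edgeR, and it was -0.345 without VEH1. Usp18, the protease that removes Isg15, had 9, 2 and 2 counts in COR1 to COR3 and 5, 1 and 10 counts in VEH1 to VEH3, with no pattern by label.

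Ifi35, an interferon-induced adaptor, ran from 9.85 to 14.1 CPM and was the highest of this group per length, with values of 13.8, 10.8 and 14.1 CPM in COR1 to COR3 and 9.85, 12.8 and 13.2 CPM in VEH1 to VEH3. Dtx3l, a ubiquitin ligase that works with Parp9, stood at 10.2, 20.1 and 12.9 CPM in COR1 to COR3 and at 18.2, 15.4 and 13.5 CPM in VEH1 to VEH3. COR2 was high and COR1 low within a label. Of the guanylate-binding proteins, which attack the vacuoles of intracellular microbes, Gbp2 was highest per length, at 1.05, 1.20 and 1.41 CPM in COR1 to COR3 and 1.80, 1.28 and 1.04 CPM in VEH1 to VEH3. Gbp3 stood out in COR3 alone, at 1.14 CPM against 0.391 to 0.501 CPM elsewhere, and Gbp7 ran from 0.559 to 1.06 CPM.

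The antigen presentation genes held the member highest per length. B2m, the light chain of every class I molecule, stood at 277, 290 and 293 CPM in COR1 to COR3 and at 355, 318 and 273 CPM in VEH1 to VEH3. VEH1 and VEH2 were high, and VEH3 was the lowest of all. Means were 287 ± 8.85 and 315 ± 41.1 CPM (SD, n = 3 each), a difference of -0.14 ± 0.11 (SE) with an adjusted p of 0.614 by edgeR. With 1 library left out, it ran from -0.238 (without VEH3) to -0.045 (without VEH1). H2-D1, a class I heavy chain, showed the same high VEH1 and low VEH3, at 64.3, 67.6 and 74.7 CPM in COR1 to COR3 and 86.8, 83.2 and 57.9 CPM in VEH1 to VEH3. H2-K1, the other heavy chain, stood at 44.4, 55.3 and 57.04 CPM in COR1 to COR3 and at 55.2, 52.7 and 43.7 CPM in VEH1 to VEH3. Class I genes resemble each other, with 12.8% of the 50-base stretches of H2-D1 and 9.63% of those of H2-K1 found in other transcripts. The effect of differences between the H2 alleles of this line and the reference strain was not tested.

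Tap1, a chain of the peptide pump into the endoplasmic reticulum, had the largest point difference above 0 among the members. It stood at 2.83, 4.15 and 4.36 CPM in COR1 to COR3 and at 2.19, 3.07 and 2.46 CPM in VEH1 to VEH3. COR2 and COR3 were high, and COR1 lay below VEH2, so the labels overlapped. The difference was 0.55 ± 0.24 (SE) on the log2 scale, with an unadjusted p of 0.0514 and an adjusted p of 0.424 by edgeR. Its partner Tap2 ran from 9.36 to 14.9 CPM, lowest in COR1 and highest in COR2, and overlapped. Tapbp, tapasin, which holds the pump to class I molecules, ran from 83.9 CPM in COR1 to 159 CPM in COR2, with 24.9% of its exon length under the antisense gene Gm19412. Genes on the other strand also overlap 16.8% of the exon length of Ifi35 and 14.1% of that of Tap2.

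Genes of the pathway outside the 41 were read from the same fit. Of 85 listed, 56 passed the count filter, and edgeR called 0, as did DESeq2 and limma-voom, while 7 had an unadjusted p under 0.05 (11.8% of all genes did). Point differences were above 0 in 33 and below 0 in 23, with a median of 0.051, on the other side of 0 from the members' median. The labels did not overlap in 8, of which 4 were higher and 4 lower with corticosterone, against 16.6% of all genes. Trim25, the ligase that activates RIG-I, stood at 43.7, 38.6 and 41.1 CPM in COR1 to COR3 and at 36.0, 36.1 and 35.1 CPM in VEH1 to VEH3. Like Ddx58, it was higher in all corticosterone libraries, at a difference of 0.20 with an adjusted p of 0.386 by edgeR. Samhd1, an enzyme that depletes nucleotides, stood at 69.3, 68.3 and 72.1 CPM in COR1 to COR3 and at 60.9, 62.8 and 57.7 CPM in VEH1 to VEH3. These did not overlap either, at a difference of 0.21 and an adjusted p of 0.364. Ticam1 and Canx were the other 2 higher genes, at 0.18 and 0.17. The 4 lower genes were Irf5 at -0.45, Zbp1 at -0.82, Sp100 at -0.37 and H2-Q4 at -0.41 on the log2 scale, with adjusted p-values by edgeR of 0.532, 0.434, 0.467 and 0.403.

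Socs3, an inhibitor of cytokine receptors, stood at 28.4, 36.5 and 35.4 CPM in COR1 to COR3 and at 64.1, 54.0 and 32.2 CPM in VEH1 to VEH3. As with B2m and H2-D1, VEH1 and VEH2 were high and VEH3 was not. In antigen processing 14 of 18 listed genes passed the filter, but the immunoproteasome subunits Psmb8 and Psmb9 did not, at no more than 0.352 and 0.379 CPM, while the third such subunit, Psmb10, did, at 9.96 to 12.02 CPM. Of 7 class II genes only H2-DMa was tested, and H2-Aa, H2-Ab1 and H2-Eb1 had no count in any library.

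Beside the labels stands the arrangement set by the glucocorticoid-induced genes. Members did not overlap between COR1, COR3, VEH2 and COR2, VEH1, VEH3 in 5 of 37 cases, against 9.63% of all genes. Irf2, Irf7 and Isg20 were higher in COR1, COR3 and VEH2 (4.89% of all genes were), and Ifitm3 and Parp14 lower (4.74% of all genes were). Under total-count scaling Isg20 overlapped, leaving 4. The median difference of mean log2 CPM was -0.092 over the members and -0.001 over all genes tested. No p is given for these values.

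Irf2, a factor that competes with Irf1 for the ISRE, stood at 27.9, 30.8 and 33.8 CPM in COR1, COR3 and VEH2 and at 24.2, 23.9 and 23.4 CPM in COR2, VEH1 and VEH3. The second set was tight and lay below the first, by 0.37 on the log2 scale. Isg20, an RNA-degrading exonuclease, stood at 11.9, 10.4 and 12.1 CPM in the first set and at 7.88, 10.0 and 8.31 CPM in the second, a difference of 0.39. Irf7 differed by 0.36, and its nearest values were COR3 at 1.65 and VEH1 at 1.49 CPM. Their exact Poisson intervals, 1.19 to 2.23 CPM for COR3 and 1.05 to 2.04 CPM for VEH1, overlapped. Parp14, an ADP-ribose transferase, stood at 6.43, 4.68 and 5.14 CPM in the first set and at 6.89, 6.76 and 6.596 CPM in the second. Its nearest values, COR1 and VEH3, lay close.

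Libraries also lay near each other in pairs, of which COR1 with VEH3 crosses the labels. Over all 14450 genes, the SD of the log2 difference was 0.359 between COR1 and VEH3, 0.362 between VEH1 and VEH2 and 0.399 between COR2 and COR3, and each library was nearest to its partner in these pairs. Every other pairing had an SD of 0.446 to 0.561. Each near pair holds 1 library high and 1 low in the glucocorticoid-induced genes. Read within these pairs, 13 of 37 members were lower in COR1, COR3 and VEH2 in all 3 pairs, against 20.5% of all genes, and 5 were higher in all 3, against 20% of all genes. These counts were added after the values were seen and are a description.

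The 13 genes lower in every near pair were Ifnar1, Ifngr2, Irf1, Stat2, Irf9, Eif2ak2, Ifitm1, Ifitm3, Mx2, Dtx3l, Parp14, Tap2 and Tapbp. Irf1 gave nearly the same value in each, at -0.27 for COR1 minus VEH3, -0.28 for COR3 minus COR2 and -0.25 for VEH2 minus VEH1. Ifitm3 gave -0.30, -0.26 and -0.25 in that order. By label these 2 genes overlapped, with Irf1 at -0.13 and Ifitm3 at -0.015. Ifitm1 gave -0.48, -1.14 and -0.96. Other differences were near 0, as for COR1 minus VEH3 in Eif2ak2 (-0.007), Parp14 (-0.037), Irf9 (-0.047) and Ifnar1 (-0.053). Over the 37 members, the median of COR1 minus VEH3 was -0.037, against -0.003 over all genes tested. The 5 genes higher in every near pair were Irf2, Irf7, Isg20, Ifi35 and Tap1, with Irf2 at 0.26, 0.35 and 0.50. Bst2, Ddx58 and Isg15, which did not overlap by label, had pairs of mixed sign, whereas Stat2 was lower in all 3. B2m, H2-D1 and H2-K1 also had pairs of mixed sign.

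**Figure D4:**
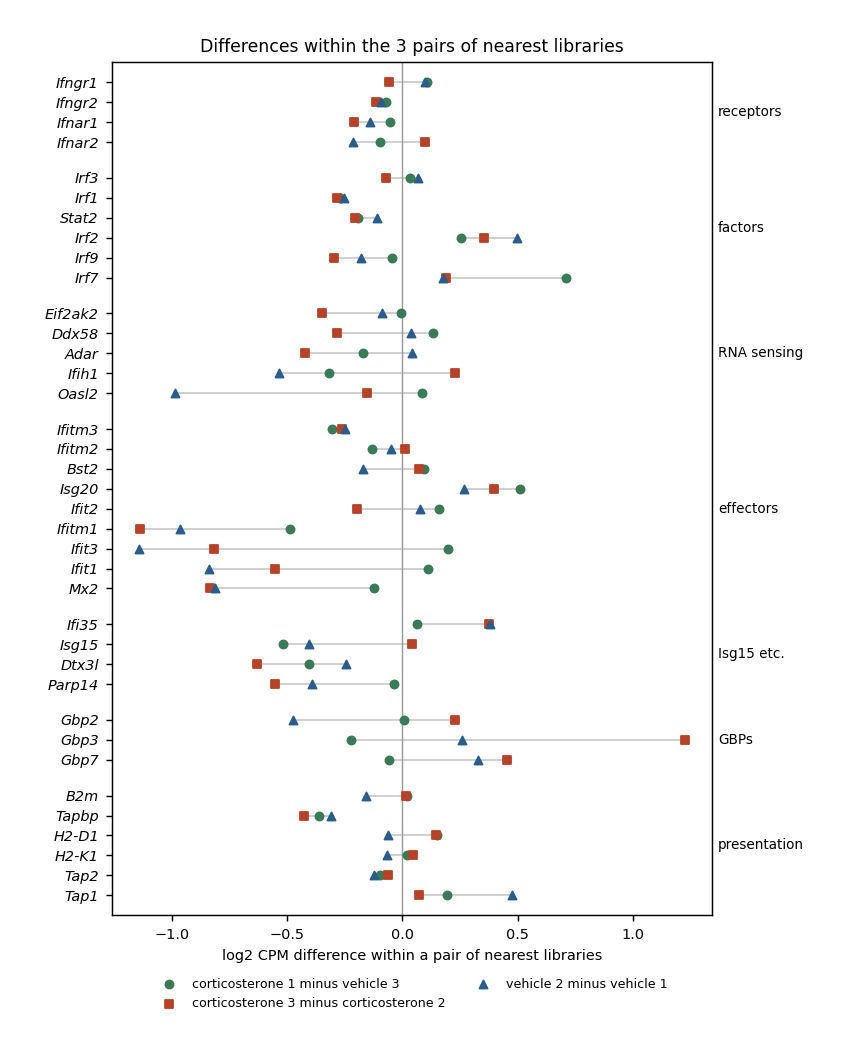
Log2 CPM differences of the 37 tested members within the 3 pairs of nearest libraries (green circles COR1 minus VEH3, red squares COR3 minus COR2, blue triangles VEH2 minus VEH1), by role. Irf1, Ifitm3 and Tapbp lie below 0 and Irf2 and Isg20 above 0 in all 3 pairs.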

How the data were processed

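Poly(A) RNA of 6 C2C12 myotube libraries was sequenced, and the authors deposited 1 table of raw counts per gene. Per the submitters' processing notes, the build was mm10, and the tools were DESeq2 1.24.0, HTSeq 0.6.1 and HISAT2 2.0.5. No annotation release or strand setting is given in the sources used here, and reads of genes that overlap on opposite strands were treated as inseparable. The counts were used as deposited, with no library left out. Genes kept by filterByExpr (14450) were tested with edgeR 4.0.16 (R 4.3.3): TMM scaling, quasi-likelihood F-test of corticosterone against vehicle, two-sided, Benjamini-Hochberg adjustment over those genes, threshold 0.05. The SE of a difference was taken as its absolute value divided by the square root of the edgeR F statistic. Log2 CPM used a prior count of 2. RPKM divides CPM by the exon length in GENCODE M21 (GRCm38). The alternatives were DESeq2 1.42.0, limma-voom (limma 3.58.1), 3 scalings, 2 filters, a replicate block and libraries left out. The edgeR script was tested on simulated data.

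The members and lists were chosen with earlier results of these data known. Values in every library were given by a rule: the member highest per length in each role group, members whose labels or arrangement did not overlap, and Irf1, Irf7, Irf9, Stat2, B2m, H2-K1, H2-D1 and Tap1. Other genes were chosen after their values were seen. Promoters came from RefSeq (GRCm38.p6). In 40 of 45 member windows, the bases after the start matched an annotated transcript of the gene, or the window held a transcript's first bases. Same-numbered libraries did not vary together in their deviations from label means, and no pair of libraries was alike within sampling noise. Some listed genes are not reported here.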

Additional observations from a re-analysis of the deposited data

How the results depend on the processing

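The count of called members was 0 under every alternative run, as was that of the other pathway genes. Over all genes, DESeq2 called 138, leaving out both libraries numbered 2 gave 3, and leaving out each library in turn gave 0 to 29, with 29 without COR1 and 11 without VEH3; the cause was not tested. The members' median difference ran from -0.147 to -0.008. With the replicate number as a block it was -0.058, with 0 genes called. The deviations of same-numbered libraries from their label means correlated at -0.153, -0.266 and -0.325, so these deviations did not vary together. COR2 and VEH2 went against their labels in glucocorticoid-induced genes, so these values cannot show whether the numbers pair the libraries. No tested member crossed the threshold under any alternative. Under total-count scaling the sign turned for Tapbp (-0.004), Irf2 (-0.017) and H2-K1 (-0.003), and without both libraries numbered 2 for Tapbp (-0.257), Isg20 (0.283) and Gbp7 (0.232); the cause was not tested. Leaving out each library in turn turned the sign of 17 members: Dtx3l -0.443 to 0.073, Gbp2 -0.337 to 0.065, Gbp3 -0.083 to 0.767, Gbp7 -0.271 to 0.198, H2-K1 -0.054 to 0.152, Ifi35 -0.014 to 0.220, Ifih1 -0.157 to 0.153, Ifit1 -0.334 to 0.140, Ifit3 -0.415 to 0.243, Ifitm1 -0.848 to 0.162, Ifitm2 -0.138 to 0.021, Ifitm3 -0.138 to 0.078, Irf2 -0.070 to 0.223, Isg20 -0.151 to 0.137, Oasl2 -0.587 to 0.221, Parp14 -0.156 to 0.112 and Tapbp -0.206 to 0.252. Counts without overlap and within near pairs, tried under other scalings and filters after the values were seen, stayed within 1.5 times; the arrangement count was 4 under total-count scaling, where Isg20 overlapped. Depth limits the scarce members, since 3 counts equal 0.103 to 0.125 CPM.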
